A study of Drosophila melanogaster with 2 samples.

Results

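SREBP is the membrane-bound transcription factor that controls lipid synthesis, and this account covers its gene and 9 genes that work with it or make fatty acids and related lipids. They are SREBP, SCAP, ACC, FASN1, Desat1, ATPCL, AcCoAS, Hmgs, Baldspot and eas, taken by name from the Ensembl annotation, and all 10 were found among 13945 protein-coding genes. For each gene every peak was taken whose summit lay within 2000 bp of any of its transcription start sites (TSSs) or inside its span, from start to end. The peaks come from ChIP-seq of schlank, a ceramide synthase that also carries a homeodomain. The material was whole embryos of both sexes of Drosophila melanogaster, 0 to 24 h old, in 2 biological replicates of 1 group. They carried a transgene, in a stable line, for schlank tagged with GFP at the C terminus. There is no second condition, so no genotype or treatment is compared. The antibody field names schlank and separate controls are listed, although the free-text description calls both samples input controls. They are treated as ChIP here. The lists hold no read counts, so depth is unknown.

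In flies, SREBP sits in the membrane of the endoplasmic reticulum, is carried to the Golgi by SCAP and is released there by proteolysis. The fragment that is set free enters the nucleus and raises transcription of genes of fatty acid synthesis. Flies make no sterols, and their SREBP responds to phosphatidylethanolamine and to fatty acid supply. The gene schlank has been linked to body fat and to SREBP-dependent lipid synthesis in larvae, which makes binding at these genes a question of interest.

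The sequences under the summits of 5 sites are shown, 4 from the thresholded set and 1 candidate of FASN1 below it. They are a selection of the sites described below. The thresholded set holds 2790 peaks and was made by IDR, which sets a cut by how reproducibly peaks rank between replicates. It is identical to the 2790 strongest of the 30000 candidates of the pooled replicates, so a peak in it need not be strong in both. Each run extends up to 100 bp on both sides of the summit and stops where an annotated 5′ UTR begins. Summits inside a 5′ UTR therefore have no run, among them the strongest eas summit and that of Hmgs. Each run is read along the strand of its gene from the NCBI Release 6 assembly, which has dm6 coordinates. Capitals mark the letters GAGAG, the short repeat bound by GAGA factor, on either strand, with overlapping matches counted.
Baldspot intron, chr3L:16660497-16660697, minus strand: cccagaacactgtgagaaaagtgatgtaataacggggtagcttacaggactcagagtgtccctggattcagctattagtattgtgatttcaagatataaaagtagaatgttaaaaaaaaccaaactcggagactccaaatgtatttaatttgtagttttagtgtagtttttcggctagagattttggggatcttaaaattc
SREBP intron, chr3L:19794377-19794563, plus strand: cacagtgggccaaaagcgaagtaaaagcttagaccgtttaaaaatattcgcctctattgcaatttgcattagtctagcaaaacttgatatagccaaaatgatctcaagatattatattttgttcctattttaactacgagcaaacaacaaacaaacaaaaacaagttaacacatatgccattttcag
eas upstream, chrX:16278167-16278327, plus strand: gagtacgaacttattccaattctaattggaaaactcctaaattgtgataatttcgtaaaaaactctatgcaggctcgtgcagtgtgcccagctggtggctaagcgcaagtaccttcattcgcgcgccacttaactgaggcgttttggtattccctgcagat
AcCoAS intron, chr3L:21277044-21277244, minus strand: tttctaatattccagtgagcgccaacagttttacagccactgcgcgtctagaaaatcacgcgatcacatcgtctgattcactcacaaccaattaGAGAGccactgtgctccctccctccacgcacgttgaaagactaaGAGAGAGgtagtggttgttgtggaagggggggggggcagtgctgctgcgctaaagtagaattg
FASN1 intron, below the threshold, chr2L:3058786-3058986, plus strand: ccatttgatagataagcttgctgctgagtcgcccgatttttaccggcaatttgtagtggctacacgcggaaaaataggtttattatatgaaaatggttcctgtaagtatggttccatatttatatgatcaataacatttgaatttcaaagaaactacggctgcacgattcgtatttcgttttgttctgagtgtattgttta
GC content was 35.3% in the run of Baldspot, 32.6% in that of SREBP, 35.8% in that of FASN1, 50.7% in that of AcCoAS and 44.7% in that of eas. Of the 6 short sequences searched, GAGAG in AcCoAS was the only one found in these runs.

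Of the 10 genes, 5 held a thresholded summit, namely Baldspot, eas, SREBP, Hmgs and AcCoAS. The same reach caught a thresholded summit at 21.0% of all protein-coding genes. These 10 genes are long, with spans of 5045 to 17748 bp and a median of 8770 bp against 2166 bp for all protein-coding genes. Among the 2471 protein-coding genes with spans of 5000 to 20000 bp, a range that holds all 10, the share was 32.7%. The members were chosen with earlier results known, so the count is a description with no test.

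Together the 5 genes held 9 thresholded summits. Of these, 3 lay in introns, 4 in a 5′ UTR and 2 upstream of the gene, and none lay in a coding exon. These places were not counted over all thresholded summits. Within 500 bp of a TSS of the gene lay 5 of the 9. Of all thresholded summits, 49.5% lay within 500 bp of a protein-coding TSS, a similar share. Each of the 9 had a TSS of its own gene as the nearest protein-coding TSS. In a narrower window, 500 bp around a TSS, 4 of the 10 genes had one, against 12.7% of all protein-coding genes. The 10 genes have 1 to 5 annotated TSSs each, and that share was not matched for the number of TSSs. SREBP was the gene that dropped out, since its only thresholded summit lay 542 bp into the gene, just past that window. In the map of summits, the strongest sites of Baldspot, eas and SREBP lie inside the gene and not at its start.

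**Figure D1:**
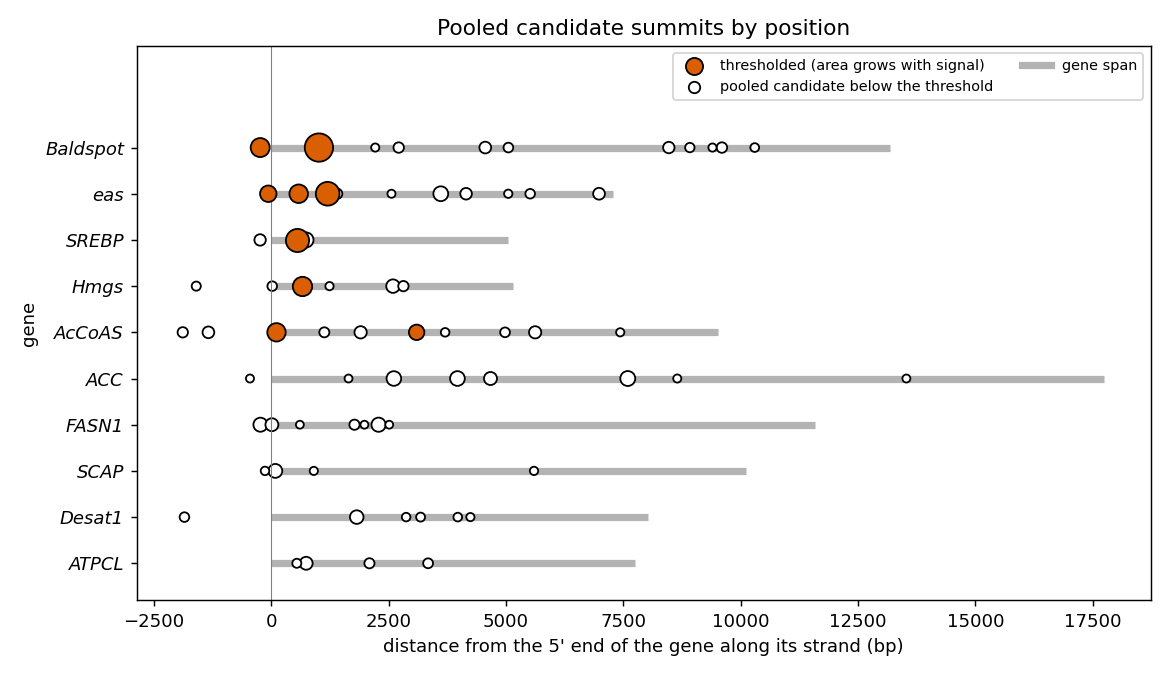
Pooled candidate summits of the 10 genes by distance from the 5′ end of the gene in bp, with genes ordered by their strongest candidate. Orange circles are the 9 thresholded summits, white circles are the other pooled candidates, the area grows with the authors' signal, and grey bars are the gene spans. Baldspot and eas carry strong summits near the start and again inside the gene, and the lower 5 genes hold only white circles.

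Baldspot, which encodes an elongase that lengthens fatty acids (chromosome 3L, 16648442 to 16661615, minus strand), had the strongest site of the 10 genes. The signal, the authors' peak strength, was 410 in the pooled list (rank 327 of 30000) at summit 16660597, in an intron 1018 bp downstream of the TSS. The matching candidate had a signal of 154 in replicate 1 (rank 229) and 276 in replicate 2 (rank 366). Both replicates thus placed it among their strongest sites. Signal scales differ between the lists, so ranks and not signals are set side by side. A second thresholded summit lay 233 bp upstream of the TSS at 16661848 (pooled signal 185, rank 1364), ranked 970 in replicate 2 and only 4640 in replicate 1. The strongest candidate of Baldspot was higher than that of 96.5% of all protein-coding genes, and of 94.5% of those of 5000 to 20000 bp. Genes with no pooled candidate count as lower in these shares.

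eas encodes ethanolamine kinase, which takes the first step of phosphatidylethanolamine synthesis from ethanolamine (X, 16278328 to 16285618, plus strand). It was the only member with 3 thresholded summits, against 1.51% of protein-coding genes of any span with 3 or more. The strongest, at 16279532 in a 5′ UTR and 953 bp downstream of the nearest annotated TSS, had a pooled signal of 287 (rank 636). It ranked 654 in replicate 1 (signal 91.0) and 674 in replicate 2 (signal 201), so the replicates placed it almost alike. The next, at 16278915 (signal 176, rank 1496), lay 336 bp downstream of a TSS and ranked 1180 and 1767 in replicates 1 and 2. The third, 61 bp upstream of the first TSS (signal 139, rank 2250), ranked 3083 in replicate 1 and 2639 in replicate 2. The strength of the 3 sites thus followed the same order in every list, highest inside the gene and lowest at its first TSS.

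SREBP itself (3L, 19793935 to 19798979, plus strand, 1 annotated TSS) had 1 thresholded summit, at 19794477 in an intron, 542 bp downstream of the TSS. Its pooled signal was 274 (rank 690), with 96.6 in replicate 1 (rank 575) and 171 in replicate 2 (rank 896). The replicate 1 summit fell on the same base and that of replicate 2 lay 49 bp away. A neighbouring pooled candidate at 19794677 (signal 117, rank 2961) stayed just below the weakest thresholded signal of 121. Within 500 bp of the TSS, the strongest pooled candidate had a signal of 66.7 and rank 7643. It lay nearer to the TSS of CG42637, at 131 bp. In replicate 2 the main site itself lay 493 bp from the SREBP TSS and thus inside that window. The strongest candidate of replicate 1 in the window had rank 3993 and lay 121 bp from the TSS of CG42637.

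AcCoAS encodes acetyl-CoA synthetase, which makes acetyl-CoA from acetate (3L, 21270722 to 21280243, minus strand). Its summit at 21280129, in a 5′ UTR and 114 bp from a TSS, reached a pooled signal of 173 (rank 1538). It ranked 1129 in replicate 2 (signal 149) but 14746 in replicate 1 (signal 17.9), whose summit lay 104 bp away. Its intronic summit at 21277144, upstream of an internal TSS by 799 bp, had a pooled signal of 122 and rank 2772, close to the last rank of the set. It ranked 4613 in replicate 1 and 2782 in replicate 2. Neither AcCoAS site was among the strongest 2790 of replicate 1, so the call for this gene rests mainly on replicate 2. The strongest replicate 1 candidate of the gene lay at another place, 21276536 in an intron (signal 38.9, rank 3049). It had no replicate 2 candidate within 200 bp.

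Hmgs encodes the HMG-CoA synthase of the mevalonate pathway, which in flies makes isoprenoids but no sterols (2R, 16336090 to 16341242, plus strand). Its single thresholded summit, at 16336741 in a 5′ UTR, lay 19 bp upstream of an annotated internal TSS and 651 bp from the 5′ end of the gene. The pooled signal was 192 (rank 1292), with 50.8 in replicate 1 (rank 1886) and 141 in replicate 2 (rank 1233). In the pooled list it was the strongest summit of the 10 genes within 500 bp of a TSS, but not in either replicate. There eas was stronger in replicate 1, and SREBP, Baldspot and AcCoAS were stronger in replicate 2. The site also lay 104 bp upstream of a TSS of Vha44, a subunit gene of the vacuolar proton pump that runs on the opposite strand, so Hmgs and Vha44 share this peak. A second site, pooled rank 4309 at 16338685 (signal 93.0), had a candidate of rank 2128 within 200 bp in replicate 1 and of rank 10437 in replicate 2. Just beyond 200 bp, at 16338423, replicate 2 also had a stronger candidate (signal 87.2, rank 2843).

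The genes nearest to Hmgs in promoter rank over the 2 replicates were Vha44, hebe and CG13994. Likeness was the sum of the absolute differences of the ranks of the strongest candidate within 500 bp of a TSS, over 4548 other genes with one in both replicates. Vha44 had a sum of 0 because it is the same candidate. hebe, at ranks 1871 and 1193, had 55, and CG13994, at 1830 and 1340, had 163.

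SCAP, ACC, FASN1, Desat1 and ATPCL held candidates but no thresholded summit. Their strongest pooled candidates had signals of 85.7 to 114, against 121 for the weakest thresholded peak, and ranks of 3068 to 4949. These candidates were still stronger than the best of 69.3% to 77.8% of all protein-coding genes. Among those of 5000 to 20000 bp it was 52.9% to 65.4%. These shares count genes with no pooled candidate as weaker, and 9836 of all 13945 protein-coding genes held a candidate.

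**Figure D2:**
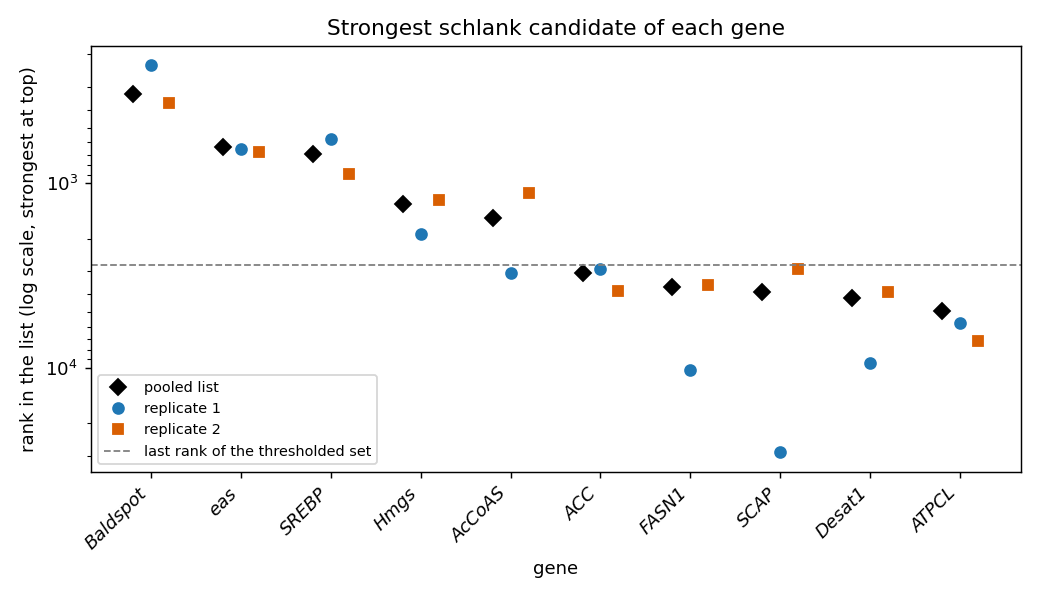
Rank of the strongest candidate of each gene in the pooled list and in each replicate, on a log scale with the strongest at the top; the strongest candidate can be a different summit in each list. The dashed line is rank 2790, the last of the thresholded set. Baldspot, eas, SREBP and Hmgs lie above it in all 3 lists and AcCoAS in the pooled list and replicate 2, while the replicate 1 points of SCAP, FASN1 and Desat1 lie far below.

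ACC, the acetyl-CoA carboxylase that commits carbon to fatty acids (2R, 7974115 to 7991862, minus strand), came closest to the set. It had 3 candidates of similar strength in introns, at 7984266, 7987894 and 7989248, with pooled signals of 114, 111 and 109 (ranks 3068, 3235 and 3320). The first had no replicate 1 candidate within 200 bp and ranked 4046 in replicate 2. The second ranked 2935 in replicate 1 and 3861 in replicate 2, but its nearest protein-coding TSS belonged to Nup44A, a nucleoporin gene, 568 bp away. The signal at ACC was thus spread over several sites, none of them past the threshold.

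FASN1, the fatty acid synthase that makes palmitate (2L, 3056598 to 3068177, plus strand), had 7 pooled candidates. The 2 strongest, an intronic summit at 3058886 and one 228 bp upstream of the first TSS at 3056370, had signals of 103 and 101 (ranks 3660 and 3759). They matched candidates of rank 4334 and 3585 in replicate 2. No pooled candidate of FASN1 had a replicate 1 candidate within 200 bp. Replicate 1 had 1 candidate in reach, of rank 10268, so nearly all candidates that the replicates listed at FASN1 were those of replicate 2.

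SCAP encodes the escort protein that carries SREBP to the Golgi (2R, 6026273 to 6036388, minus strand). Its strongest pooled candidate, at 6036299 in the 5′ UTR and 89 bp from the TSS, reached a signal of 98.6 and rank 3912. It ranked 2906 in replicate 2, and none of its 4 pooled candidates had a match in replicate 1, where the gene had a single candidate of rank 28802, 1246 bp upstream of the TSS. SCAP and FASN1 were thus alike in having only 1 candidate each in the list of replicate 1.

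Desat1 encodes the desaturase that puts a double bond into palmitate and stearate (3R, 12439600 to 12447616, plus strand). Its strongest pooled candidate lay 4 bp from an internal TSS at 12441423, with a signal of 94.2 (rank 4205), and ranked 9461 in replicate 1 and 3894 in replicate 2. ATPCL encodes ATP citrate lyase, which makes cytosolic acetyl-CoA from citrate (2R, 15993531 to 16001290, minus strand). Its candidate at 16000544, 257 bp upstream of an internal TSS, had a signal of 85.7 (rank 4949), with ranks of 5728 in replicate 1 and 7135 in replicate 2. Both genes lay close to strong sites of neighbours, outside the reach used here. A thresholded summit with a signal of 1061 lay 1570 bp beyond the far end of Desat1, 110 bp from the TSS of CG18549. Another with a signal of 971 lay 1017 bp beyond the far end of ATPCL, 106 bp from the TSS of CG8320. For SCAP, ACC and FASN1 the nearest thresholded summit was 8554, 10429 and 14301 bp from the gene.

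The replicates differed in how much they held at these genes. Each of the 9 thresholded summits was matched by a candidate of both replicates at a distance of 200 bp or less, as were 95.1% of all thresholded summits in replicate 1 and 99.5% in replicate 2. Of these candidates, 5 were among the strongest 2790 of replicate 1 and 9 among those of replicate 2, compared with 71.7% and 86.7% over all thresholded summits. Counted by gene, 4 of the 10 held one of the strongest 2790 candidates of replicate 1, against 20.7% of all protein-coding genes. For replicate 2 it was 5 of the 10, against 20.5%, and neither share was restricted to genes of similar span. The additional gene was AcCoAS.

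**Figure D3:**
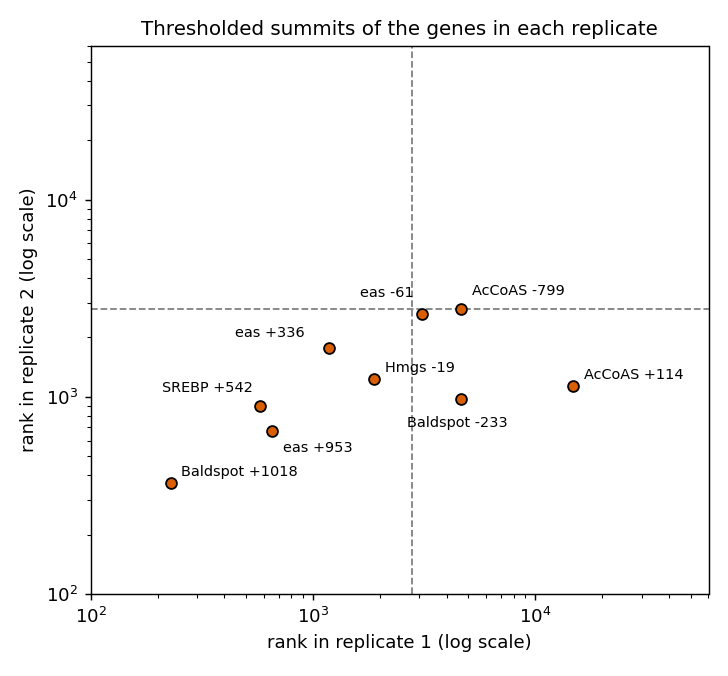
Rank of the candidate matched to each of the 9 thresholded summits, in replicate 1 on the horizontal axis and in replicate 2 on the vertical axis, both on log scales. Labels give the gene and the distance to its nearest TSS in bp, and dashed lines mark rank 2790 of each replicate. Baldspot +1018, SREBP +542, the 2 inner eas sites and Hmgs lie inside both lines; AcCoAS +114 lies far to the right, at rank 14746 in replicate 1.

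The genes with no thresholded summit had 29 pooled candidates, of which 7 had a match in replicate 1 and 24 in replicate 2. The genes with one had 40, of which 25 had a match in replicate 1 and 37 in replicate 2. The groups were split by pooled signal, so weaker candidates in the first follow partly from the split. The same shares were not computed over all pooled candidates, so these counts are no trait of the genes. In the pooled ranks 2791 to 5000, 10 candidates belonged to the 5 genes with no thresholded summit, and 5 of them were matched in replicate 1 and 10 in replicate 2. Over all 2210 candidates of these ranks the shares were 81.2% and 99.0%. The unmatched ones were all 3 of FASN1, the 1 of SCAP and 1 of the 4 of ACC, while those of Desat1 and ATPCL were matched. Over all 10 genes, 8 of 13 candidates of these ranks were matched in replicate 1 and 13 in replicate 2.

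In all, the 10 genes held 69 pooled candidates, 42 in replicate 1 and 78 in replicate 2. The median per gene was 6.5 pooled candidates, 4 of replicate 1 and 8 of replicate 2, against 1 per protein-coding gene in each list, although these genes are longer than most. Of the pooled candidates, 41 lay in introns, 10 upstream, 10 in a 5′ UTR, 7 in coding exons and 1 in a 3′ UTR, and 26 lay within 500 bp of a TSS of the gene. Places were not counted over all pooled candidates or over genes of similar span, so these counts are a description only. Of the 10 genes, 3 (Baldspot, eas and AcCoAS) had 2 or more thresholded summits, against 4.34% of all protein-coding genes. That share was not restricted to genes of similar span.

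The sequence within 100 bp of the 9 thresholded summits had a mean GC content of 44.1% ± 6.92 (SD across 9 summits), against 38.5% ± 7.35 (SD across all 2790). Several summits share a gene, so they are not independent. Letters were searched on both strands. GAGAG occurred in 4 of the 9 windows, against 25.5% of all thresholded windows and 23.7% of the other pooled candidates. It lay in both AcCoAS windows, at the eas summit at 16279532 and at Hmgs. The E-box CACGTG, a sequence that SREBP can bind, occurred in 1 of 9, that of Hmgs, against 2.76% and 2.87%. The sterol regulatory element TCACNCCAC, the homeodomain core TAATTA, the DRE TATCGATA and the M1BP core GGTCACAC occurred in none of the 9, and in 0.358%, 14.6%, 3.26% and 2.01% of all thresholded windows. A missing match says only that these letters are not in these windows.

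Other genes of the pathway were taken from a list of 73, of which 71 were found in the annotation. Of these, 28 (39.4%) held a thresholded summit by the same reach. The count was 17 within 500 bp of a TSS, 15 inside the gene span only and 15 in the stronger 50% of the set. Their median span was 3885 bp, and of the 27 with spans of 5000 to 20000 bp 13 did (48.1%). The lists are small and were written with earlier results known, so no list is called different from the background of 21.0%.

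**Figure D4:**
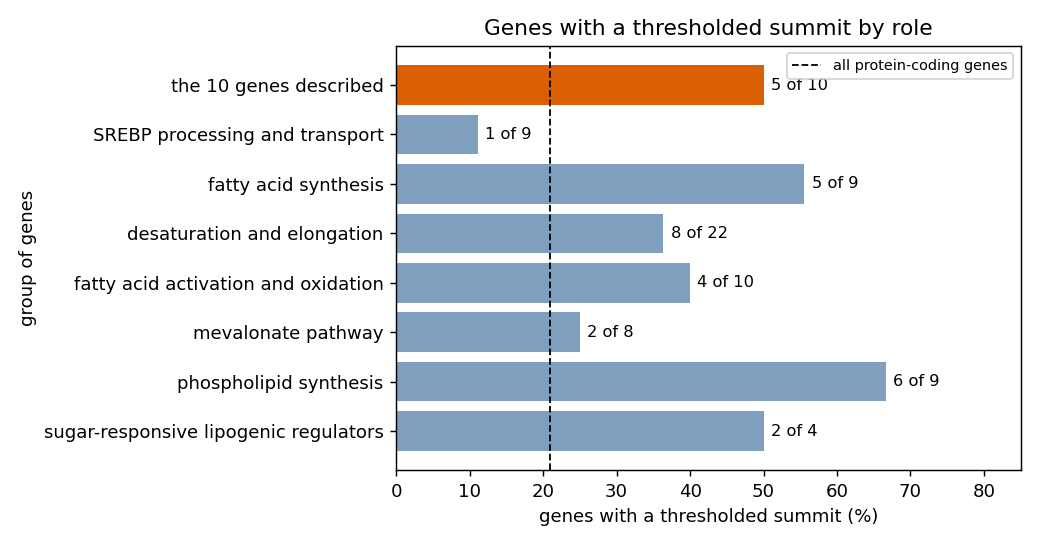
Percent of genes that hold a thresholded summit, in the gene or up to 2000 bp from a TSS, for the 10 genes (orange) and for 7 roles of the wider pathway (blue), with counts beside the bars. The dashed line is the share of all protein-coding genes, 21.0%. Phospholipid synthesis has the highest share, 6 of 9, and SREBP processing and transport the lowest, 1 of 9.

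Of the 9 genes listed under SREBP processing and transport, ago among them, 1 held a thresholded summit. This count is too small to set apart from the 21.0% of all protein-coding genes. The gene with the summit was Sec24AB, a cargo subunit of the COPII coat, with a signal of 282 at an intronic summit. The proteases S1P and S2P had none. Genes that supply or use precursors of fatty acid synthesis had 5 of 9, among them Zw (694), which makes NADPH in the pentose phosphate pathway, and sea (360), which encodes the mitochondrial citrate carrier. The third was FASN2 (226), a second fatty acid synthase, but that summit lay 254 bp from the TSS of CG17261. It is also the thresholded summit nearest to FASN1.

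Desaturation and elongation genes had 8 of 22, led by spidey (signal 396), which encodes a ketoacyl-CoA reductase, CG9743 (339) and the cytochrome gene Cyt-b5 (306). Activation and oxidation genes had 4 of 10, led by pdgy (275), Mcad (235), an acyl-CoA dehydrogenase gene of fatty acid oxidation, and whd (160), the carnitine palmitoyltransferase gene, whose summit lay 29 bp from the TSS of Pef. The mevalonate pathway had 2 of 8, Pmvk (132) and Fpps (126), both with a summit nearer to a neighbour's TSS, that of Hakai or CG7745.

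Phospholipid synthesis had 6 of 9, led by Pss (369), Cds (307) and CG33116 (245). The Pss summit lay nearer to the TSS of Nubp2. Of the 4 sugar-responsive regulators, Hnf4 (249) and bigmax (241) had one, and Mondo and sug had none.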

How the data were processed

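Peak lists of schlank ChIP-seq in 2 replicates were used, on assembly dm6 per the labels. The authors deposited 1 list of 30000 candidates per replicate, 1 of the pooled replicates, and a thresholded set of 2790 peaks made from these by IDR, per the file lists deposited with each library. For the aligner, the peak caller and the threshold of IDR, versions and settings are not given in the sources used. The signal of a peak is the strength deposited by the authors, and its scale is not stated. It was used only to rank and describe peaks within a list. Summits were placed by adding the deposited offset, in bp, to the start of the peak. No read counts are given, so depth is unknown. The controls were not used here.

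Gene models were from Ensembl release 115 and sequence from NCBI Release 6, both with dm6 coordinates. Replicate matches are the strongest candidate within 200 bp. Wider pathway genes were named by a rule, up to 3 per role with the strongest thresholded summit, and older symbols were resolved through RefSeq synonyms. The members, lists and letters searched were chosen with earlier results of these data known, and no test was run. Assignment of summits to genes was tested on simulated data. Python 3.11.15, numpy 2.4.6, pandas 2.3.3 and matplotlib 3.10.9 were used. The alternatives were other reaches, the nearest TSS only, the stronger 50% of peaks, each replicate alone and other matching distances.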

Additional observations from a re-analysis of the deposited data

How the results depend on the processing

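The count of 5 members with a thresholded summit was 4 within 500 bp of a TSS and 4 in the stronger 50% of the set, where AcCoAS was lost. It was 5 within 1000 or 2000 bp of a TSS, inside the gene span only and with the nearest TSS only. Leaving out a replicate gave 4 to 5, with 4 without replicate 2, where AcCoAS was lost. Of the other pathway genes, 28 had a thresholded summit. This was 17 within 500 bp of a TSS, 15 inside the gene span only and 15 in the stronger 50%, and 23 to 26 in the remaining settings of reach. It was 27 to 31 with the candidates of 1 replicate alone. All 9 member summits had a replicate 1 candidate within 200 bp, but 8 did within 100 bp and 5 among the strongest candidates of that replicate. In replicate 2 it was 9 in each. The median pooled rank of the members' strongest candidates was 2303, and 3414 within 500 bp of a TSS. No paired analysis was possible because the samples form 1 group. Depth is unknown, so for a site listed in 1 replicate only it cannot be said that the other replicate lacked it.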
